A study of Mus musculus with 8 samples.

Results

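Schwann cells are the glia of peripheral nerve, and in muscle they wrap motor and sensory axons inside the intramuscular nerve branches and cap the nerve terminals at the neuromuscular junction. Myelinating Schwann cells spiral their membrane around single axons and depend on the transcription factors SOX10 and EGR2, which switch on the genes for the myelin proteins. The 8 genes of this program described here were the regulators *Sox10* and *Egr2*, the compact myelin genes *Mbp* and *Pmp22*, the membrane and outer myelin genes *Mal*, *Prx* and *Ncmap*, and *S100b*, a calcium-binding protein of Schwann cells. They were picked out by gene symbol from the 12551 genes in the deposited counts, and only genes present there could be listed. The filter on low counts removed none of the 12551 genes, so that passing it says nothing about the members. The set was proposed with earlier results of these data known.

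RNA was measured in whole tibialis anterior (TA) muscle, a fast hindlimb muscle, from male mice 7 weeks of age. WT mice carried intact Klotho, and KL-/- mice were homozygous for a null allele, with both genotypes bred from heterozygotes on a mixed background. There were 4 samples per genotype, each with its own animal number in the labels. Klotho (*Kl*) was not among the 12551 genes, so that the genotypes could not be checked in these counts. Of the 8 libraries, only KL-/- replicate 3 had a different batch date in its label, and its mouse and its batch cannot be told apart. Counts summed to between 20860262 and 26501093 per WT library and between 22061526 and 29273758 per KL-/- library. Levels are given as counts relative to library size (CPM) scaled by edgeR's TMM factors, and a floor of 3 counts corresponded to 0.102 to 0.144 CPM. The genotypes were compared by edgeR's quasi-likelihood test, adjusted by Benjamini and Hochberg over all genes (FDR, threshold 0.05), and fold changes are KL-/- over WT.

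Markers of other cells were looked up beside the set, which cannot show from which cells its reads came. None of the 5 oligodendrocyte markers looked for (*Mog*, *Mobp*, *Opalin*, *Olig2* and *Hapln2*) was among the measured genes. Of 12 axonal genes, only *Prph*, *Stmn2* and *Uchl1* were measured, with a summed level of at most 7.49 CPM in WT and 4.07 to 7.43 CPM in KL-/- muscles. Muscle fibre transcripts dominated the libraries, and 9 muscle fibre genes alone summed to 142330 CPM or more in every sample. Several members are also made outside Schwann cells: *Pmp22* in fibroblasts, *S100b* in adipocytes, and *Egr2* in activated immune cells.

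To show the regions from which these genes are read, the 250 bases upstream of the RefSeq gene start were taken for *Prx*, one of the members that rose, and for *S100b*, which had the lowest fold change. The build was mm10, both genes lie on the plus strand, and the sequences run 5′ to 3′. The *Prx* window was chr7:27499074-27499323 and the *S100b* window chr10:76253586-76253835. Capitals mark the letters CCAAT or their reverse complement.
Prx: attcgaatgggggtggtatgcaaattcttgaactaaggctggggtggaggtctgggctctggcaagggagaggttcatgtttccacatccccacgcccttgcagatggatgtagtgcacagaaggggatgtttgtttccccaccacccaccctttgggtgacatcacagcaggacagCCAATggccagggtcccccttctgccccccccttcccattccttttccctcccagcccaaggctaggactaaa
S100b: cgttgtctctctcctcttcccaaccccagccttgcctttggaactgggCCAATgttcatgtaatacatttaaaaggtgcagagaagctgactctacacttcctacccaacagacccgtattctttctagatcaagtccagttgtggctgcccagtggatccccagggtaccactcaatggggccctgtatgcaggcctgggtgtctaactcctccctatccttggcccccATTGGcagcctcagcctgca

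RefSeq gene starts were matched for 6 of the 8 members, with 14 windows between them, and *Sox10* and *Mbp* had no entry. The SOX cores ACAAAG and ACAATG and the EGR site GCGNGGGCG were searched first, on both strands. None of the 3 was found in any of the 14 windows, whereas 16.5%, 10.7% and 4.7% of the 32851 windows of all genes held them. CCAAT and TATAAA were added after the sequences had been read, and CCAAT had been noticed in them by then. CCAAT was found in 8 of the 14 windows, from 5 of the members, and in 33.8% of all windows. The *Egr2* windows that start at 67537619, 67537620 and 67537680 overlap, so that 1 site was counted in each of them. TATAAA was found in 0 of the 14, against 12.4% of all windows. With 5 motifs tried, several windows per gene and 1 motif picked by eye, these counts are a description of the windows and were not tested.

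Per kilobase of exon (RPKM), the members spanned a wide range. In WT muscles *Pmp22* stood highest at 9.13 to 15.8 RPKM, above *Mbp* at 1.98 ± 0.400 RPKM and *Prx* at 1.26 ± 0.346 RPKM (SD, n = 4). *Mal* at 0.659 RPKM, *S100b* at 0.594 RPKM, *Ncmap* at 0.377 RPKM, *Sox10* at 0.367 RPKM and *Egr2* at 0.250 RPKM followed. From *Mal* down, each gene's sample range overlapped that of the next one, as did the ranges of *Mbp* and *Prx*. In KL-/- muscles the first 4 places were held by the same genes in the same order, and *Sox10* moved up to place 5 at 0.714 ± 0.0490 RPKM, while *S100b* moved down to place 7 at 0.504 ± 0.0629 RPKM. The ranges from *Sox10* down overlapped in that genotype too.

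The members that rose in KL-/- muscle were *Sox10* by 1.93-fold, *Prx* by 1.75-fold and *Mbp* by 1.53-fold. None passed the test in the other direction, and at an unadjusted p under 0.05 there were 4 higher and 0 lower. That unadjusted cut-off was met by 4031 of all 12551 genes, in either direction. The edgeR likelihood ratio test, DESeq2 and limma-voom each also called 3 higher and 0 lower. Over all 12551 genes 7.35% were called higher and 6.67% lower, 14.0% in either direction. All 4 KL-/- samples lay above all 4 WT samples in 3 members, *Sox10*, *Mbp* and *Mal*, and none lay wholly below. Of all genes 10.2% lay wholly above and 9.47% wholly below, 19.7% together. The log2 fold change was positive in 7 of the 8, with a median of 0.65, where the median of all genes was −0.02. In whole muscle, more or fewer cells of a type and more or less RNA per cell cannot be told apart.

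**Figure D1:**
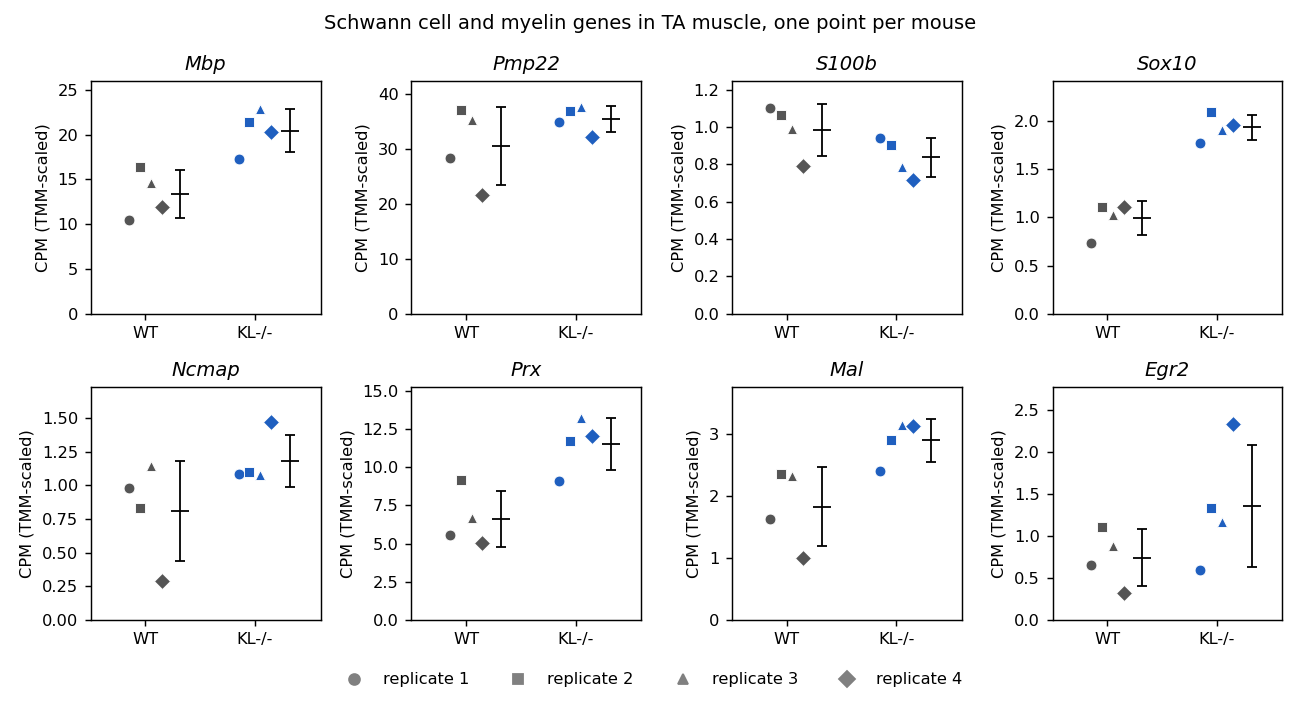
CPM scaled by TMM factors (y axis, from 0) of each member in the 4 WT (grey) and 4 KL-/- (blue) muscles, with a symbol for each replicate and the mean ± SD as a bar. *Sox10*, *Mbp* and *Mal* show no overlap between genotypes, *S100b* and *Pmp22* overlap, and *Egr2* spans 0.593 to 2.34 CPM among the KL-/- muscles.

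*Sox10*, the transcription factor that specifies the Schwann cell lineage and is kept on in mature Schwann cells, lies on chromosome 15 at 79154913 to 79164490. Its level was 0.735, 1.11, 1.03 and 1.11 CPM in WT replicates 1 to 4 and 1.78, 2.10, 1.91 and 1.96 CPM in the KL-/- replicates. The lowest KL-/- sample thus stood well above the highest WT sample, and KL-/- muscles varied by only 6.86% (coefficient of variation). The log2 fold change was 0.95 ± 0.18 (SE, FDR = 0.0125). These levels rest on 18 to 52 counts per library, for which counting error alone gives about 20% in WT and 14.4% in KL-/- muscles. *Sox10* remained past the threshold with each of the 8 libraries left out in turn, with a log2 fold change of 0.83 to 1.01.

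*Egr2*, the zinc finger factor that acts with SOX10 to start and maintain myelination, lies on chromosome 10 at 67537869 to 67542188. It was measured at 0.653, 1.11, 0.877 and 0.323 CPM in WT and 0.593, 1.34, 1.16 and 2.34 CPM in KL-/- muscles. KL-/- replicate 1 fell inside the WT range and KL-/- replicate 4 was far above all others. The log2 fold change of 0.90 ± 0.46 did not pass the test (FDR = 0.211), and its interval ran from 0.908-fold to 3.81-fold. *Egr2* is also an immediate early gene of many cells. KL-/- replicate 4 had the highest sum of 10 immediate early genes, 743 CPM. The other KL-/- muscles had 384 to 634 CPM and WT muscles 272 to 375 CPM. Of these genes, *Egr1* stood at 126 CPM in KL-/- replicate 4 and at 4.68 to 16.1 CPM in the other libraries. *Egr3* stood at 14.4 CPM in that library and at 0.531 to 2.15 CPM in the others. *Nr4a1* was higher in KL-/- replicate 3 (445 CPM) than in KL-/- replicate 4 (293 CPM). The part of these genes in the *Egr2* values was not tested.

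*Mbp*, myelin basic protein, which holds the cytoplasmic faces of compact myelin together, lies on chromosome 18 at 82475123 to 82585637. Its level was 10.4, 16.4, 14.6 and 11.9 CPM in WT and 17.3, 21.4, 22.9 and 20.2 CPM in KL-/- muscles. The genotypes did not overlap, with WT replicate 2 and KL-/- replicate 1 closest to each other. *Mbp* rose by a log2 fold change of 0.62 ± 0.15 (FDR = 0.0251), on 255 to 552 counts per library. The FDR rose above the threshold without WT replicate 4 (0.0537), without KL-/- replicate 3 (0.0699) and without KL-/- replicate 4 (0.0630). The gene also holds a promoter used in immune cells, and counts per gene do not separate its transcripts.

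*Pmp22*, a membrane protein of compact myelin whose dosage is altered in inherited neuropathies, lies on chromosome 11 at 63128982 to 63159547. It was the most abundant member, at 28.4, 37.0, 35.3 and 21.5 CPM in WT and 34.8, 36.9, 37.6 and 32.2 CPM in KL-/- muscles. The KL-/- values lay within or close to those of WT replicates 2 and 3. The log2 fold change was 0.21 ± 0.15 (FDR = 0.356), with an interval from 0.916-fold to 1.47-fold. Counting error was 3.64% in WT muscles, where the samples varied by 23.3%.

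*Prx*, periaxin, a scaffold that links the Schwann cell membrane to the basal lamina, lies on chromosome 7 at 27499324 to 27520041. It was measured at 5.59, 9.16, 6.71 and 5.06 CPM in WT and 9.14, 11.7, 13.2 and 12.1 CPM in KL-/- muscles. The genotypes touched in 1 pair, since KL-/- replicate 1 lay just under WT replicate 2. *Prx* rose by a log2 fold change of 0.80 ± 0.19 (FDR = 0.0242). It missed the threshold without WT replicate 1 (FDR = 0.0590), WT replicate 3 (0.0631), KL-/- replicate 3 (0.0669) or KL-/- replicate 4 (0.0661). Exons of *Prx* overlap those of the antisense gene *Gm15541*, and since the use of strand in counting is not given in the sources used here, reads of the pair cannot be told apart.

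*Mal*, a proteolipid that sorts lipids and proteins to the myelin membrane, lies on chromosome 2 at 127633226 to 127656695. Its level was 1.63, 2.36, 2.33 and 1.00 CPM in WT and 2.41, 2.91, 3.15 and 3.13 CPM in KL-/- muscles. All KL-/- samples were above all WT samples, but WT replicate 2 and KL-/- replicate 1 were almost level. The log2 fold change was 0.67 ± 0.25 (FDR = 0.0972), and it did not pass in any alternative, with FDR values from 0.0758 to 0.200.

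*Ncmap*, a small membrane protein of noncompact peripheral myelin, lies on chromosome 4 at 135369577 to 135398227. It was measured at 0.980, 0.833, 1.14 and 0.287 CPM in WT and 1.08, 1.10, 1.08 and 1.47 CPM in KL-/- muscles. WT replicate 4, with 8 counts, stood apart on the low side, and the other WT samples reached the KL-/- values. A log2 fold change of 0.56 ± 0.35 did not pass (FDR = 0.288), with an interval from 0.863-fold to 2.52-fold.

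*S100b*, a marker of Schwann cells and other glia, lies on chromosome 10 at 76253836 to 76261319. It was the only member with a negative log2 fold change, at 1.10, 1.06, 0.991 and 0.789 CPM in WT and 0.941, 0.906, 0.787 and 0.716 CPM in KL-/- muscles. The genotypes overlapped, and the log2 fold change of −0.23 ± 0.22 did not pass the test (FDR = 0.503). Its interval, from 0.611-fold to 1.20-fold, lay below the interval of *Sox10*, from 1.45-fold to 2.57-fold. The ratio of *Sox10* to *S100b* counts, a pair singled out after the values had been seen and not tested, was 0.667, 1.04, 1.04 and 1.41 in WT and 1.89, 2.32, 2.42 and 2.74 in KL-/- libraries.

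**Figure D2:**
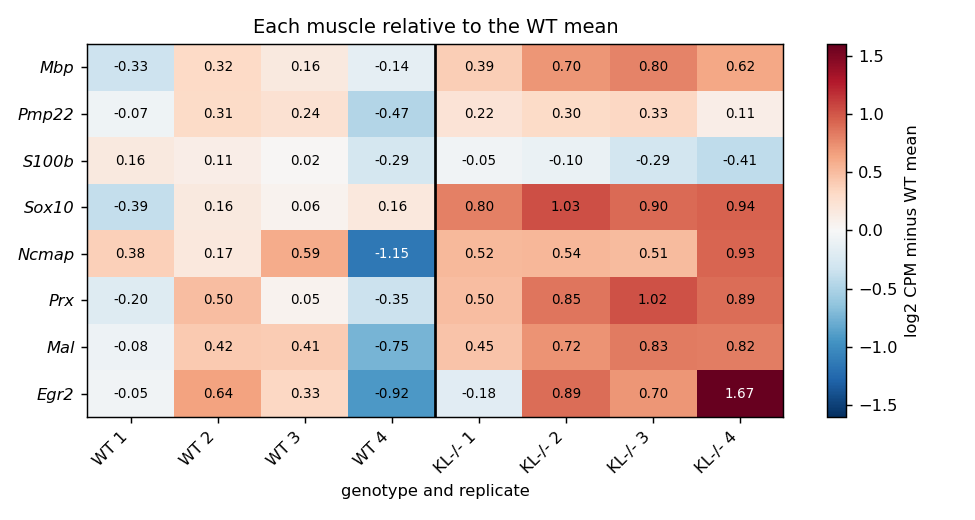
log2 CPM of each member (rows) in each muscle (columns), minus the mean of the WT muscles for that gene, on a color scale from blue (lower) to red (higher). WT replicate 4 is the lowest of the WT samples in 6 of the members, and *S100b* is the only row in which all KL-/- values are negative.

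The members did not share 1 order among the WT muscles. *Sox10* and *Mbp* were lowest in WT replicate 1. WT replicate 4 was the lowest WT sample for *Pmp22*, *S100b*, *Ncmap*, *Prx*, *Mal* and *Egr2*. It also had the lowest WT sums of the other myelin genes, 115 CPM, and of 9 muscle fibre genes, 142330 CPM. The same held for the fibroblast sum, 967 CPM, and the macrophage and leukocyte sum, 39.1 CPM. The endothelial and adipocyte sums were instead lowest in WT replicate 1, at 476 and 210 CPM. Summed over the 8 members, levels were 49.5, 69.1, 63.0 and 41.9 CPM in WT and 68.0, 78.3, 81.8 and 74.1 CPM in KL-/- muscles, with KL-/- replicate 1 inside the WT range. Likeness of patterns was measured as the root mean square difference of log2 CPM, centred on each gene's mean, over the 8 samples. Among 12550 other genes, *Mbp* was the gene most like *Prx* (0.154), and for *Mal* the closest member was *Prx*, in place 11 (0.206). The genes most like *Sox10* were *Zc3h6*, *Myh13* and *Myh6*, and *Mbp* came 11th at 0.210. *S100b* was most like *Ramp1*, *B4galt5* and *Wdr82*, and the closest gene of the myelin lists to it was *Cnp*, in place 437. *Egr2* and *Mbp* had *Mir17hg* (0.323) and *Usp43* (0.0778) as their nearest genes, *Pmp22* had *Asl* (0.0960), and *Ncmap* had *Arpp21* (0.225).

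Further genes were taken from 4 lists, and are called the other Schwann cell genes below. The lists hold genes of myelin, of signalling, of nonmyelinating or repair Schwann cells, and of the node and axon contact. Not all are specific to Schwann cells. Those that rose include *Gdnf*, which muscle also makes, and *Kcna1*, a channel of the node and axon contact list. Of 57 listed genes, 1 of them listed under a pair of symbols, 40 were measured, and 8 of them, or 20%, rose in KL-/- muscle, beside 7.35% of all genes. None was called lower, where an unadjusted p under 0.05 gave 18 higher and 2 lower, beside 4031 of all 12551 genes in either direction. The likelihood ratio test and DESeq2 each called 12 higher and limma-voom 9, all with 0 lower. Their median log2 fold change was 0.38.

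Among 12 measured genes of myelin structure and lipids, 4 rose and 0 fell, and 7 had all KL-/- samples above all WT samples. *Mpp6*, listed as a membrane scaffold of Schwann cells, rose from 65.1 ± 3.78 to 89.3 ± 8.75 CPM (FDR = 0.00850). Among WT samples it was highest in replicate 1 (69.8 CPM) and lowest in replicate 3 (61.6 CPM), unlike *Mal* and *Prx*. The cells from which its reads came were not tested. *Cldn19*, a claudin of Schwann cell tight junctions, rose from 1.13 ± 0.408 to 2.60 ± 0.121 CPM (FDR = 0.0111). *Fa2h*, which makes the hydroxylated fatty acids of myelin lipids, rose from 0.472 ± 0.182 to 1.04 ± 0.199 CPM (FDR = 0.0402). Summed over the list, levels were 115 to 155 CPM in WT and 175 to 203 CPM in KL-/- muscles, with a median log2 fold change of 0.53. *Mpp6* supplied 61.6 to 69.8 CPM of these sums in WT and 79.9 to 98.8 CPM in KL-/- muscles. Without it the sums were 52.4 to 89.8 CPM and 91.1 to 107 CPM, and WT replicate 3 and KL-/- replicate 1 were almost level.

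Of 9 regulators and signalling genes 1 rose, *Pou3f1*, a factor of promyelinating Schwann cells, from 0.579 ± 0.172 to 1.12 ± 0.114 CPM (FDR = 0.0384). No gene of this list was called in 7 of the 8 fits with a library left out, the exception being the fit without KL-/- replicate 2. The median log2 fold change of that list was −0.08, and the genes with the highest average log2 CPM in it, *Zeb2* (log2 fold change −0.34, FDR = 0.149) and *Nab1* (−0.08, FDR = 0.506), did not pass. Among 7 node and axon contact genes, *Nfasc*, an adhesion molecule of the node and paranode, rose from 0.624 ± 0.129 to 1.46 ± 0.189 CPM (FDR = 0.0105). *Kcna1*, a juxtaparanodal potassium channel, rose from 2.19 ± 0.454 to 3.78 ± 0.782 CPM (FDR = 0.0353). The count called in this list was 1 without WT replicate 1, 2 or 4 or KL-/- replicate 3 or 4, and 4 without KL-/- replicate 2 and by the likelihood ratio test and DESeq2.

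Of 12 genes of nonmyelinating, immature or repair Schwann cells, 1 rose: *Gdnf*, a survival factor for motor neurons that muscle also makes, went from 0.847 ± 0.136 to 2.32 ± 0.686 CPM (FDR = 0.0102). *Jun*, the main regulator of the repair state (log2 fold change 0.24, FDR = 0.359), and *Ncam1* (0.42, FDR = 0.113) did not pass. *Gfap*, *Sox2*, *Gap43*, *Artn*, *Shh* and *Olig1* were not among the measured genes.

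**Figure D3:**
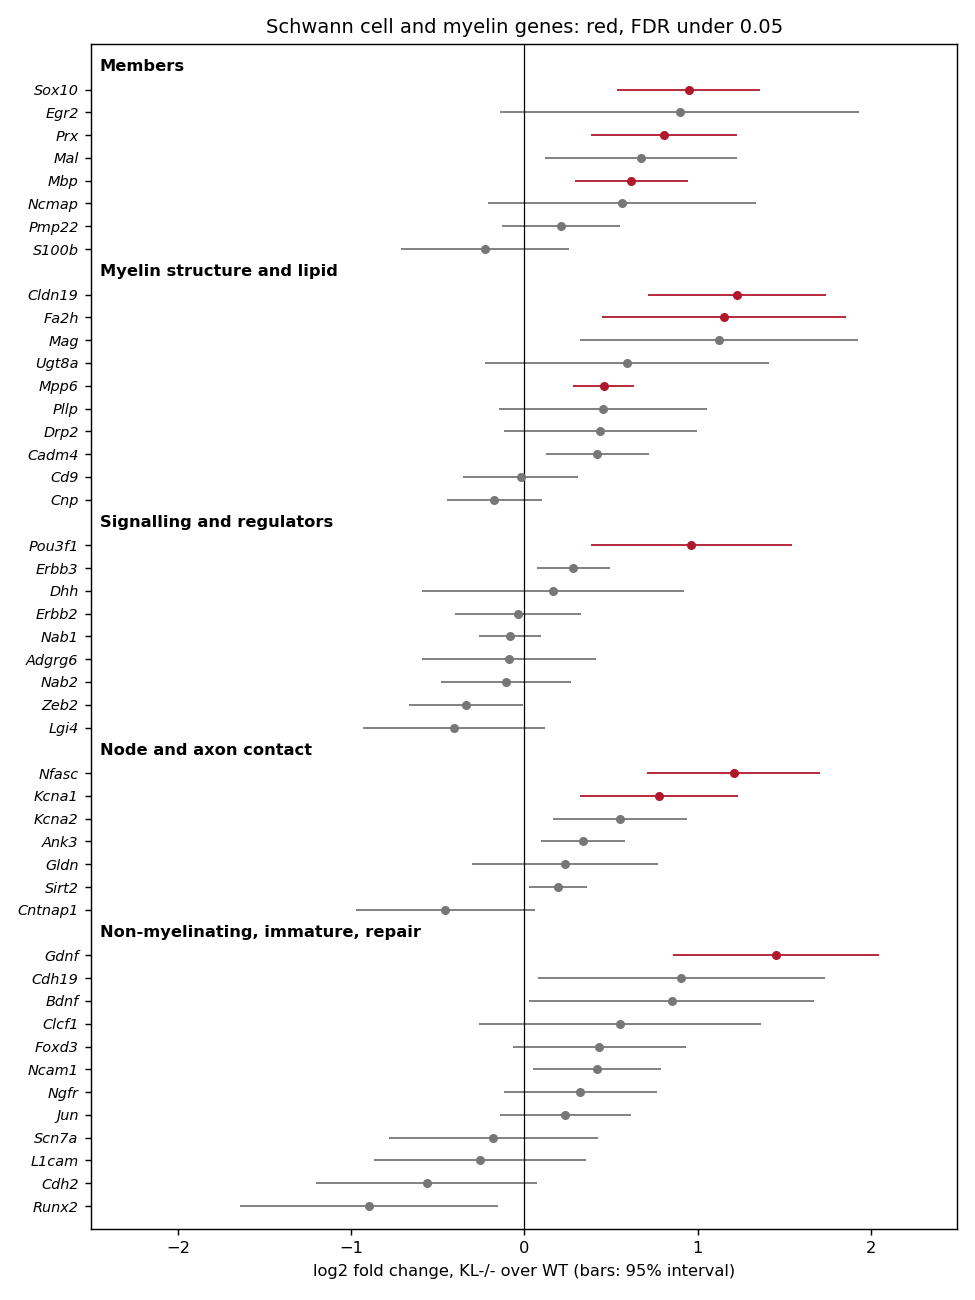
log2 fold change, KL-/- over WT, with its 95% interval (x axis) for the 8 members and 38 other measured genes of the Schwann cell lists, with genes at an FDR under 0.05 in red. Red points are found only right of 0, 3 among the members and 7 among the other genes, while most signalling genes lie near 0.

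Genes of neighbouring cells were read beside these results. Of 3 measured axonal genes 0 were called, with a median log2 fold change of −0.30 (*Stmn2* −0.30, FDR = 0.433, *Uchl1* −0.01, FDR = 0.980). Of 4 perineurial genes 0 were called, with a median of 0.47 (*Slc2a1* 0.33, FDR = 0.234, *Itgb4* 0.52, FDR = 0.169). Unadjusted, 0 axonal genes and 1 perineurial gene had a p under 0.05, as had 4031 of all 12551 genes. Of 16 close paralogs of the members *Ahnak*, related to *Prx*, rose (log2 fold change 0.53, FDR = 0.0199) and *Emp2*, related to *Pmp22*, fell (−0.40, FDR = 0.0342). Their median log2 fold change was −0.30, with 12 negative and 4 positive, and an unadjusted p under 0.05 gave 2 higher and 6 lower. No paralog was called lower without WT replicate 2, 3 or 4 or KL-/- replicate 4, and none higher without WT replicate 3 or KL-/- replicate 3.

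Markers of other cells moved with genotype as well. Of 9 fibroblast genes 3 fell, *Dcn*, *Lum* and *Dpt*, and the list summed to 967 to 3809 CPM in WT and 553 to 1715 CPM in KL-/- muscles. All 9 had a negative log2 fold change, with a median of −1.21, and 8 had an unadjusted p under 0.05. Over all 12551 genes, 4031 met that unadjusted cut-off in either direction. The count called was 0 without WT replicate 2 or 3 or KL-/- replicate 3 or 4, 1 without WT replicate 1, and 5 by DESeq2. Of 9 macrophage and leukocyte genes 2 fell, *Adgre1* and *Itgam*, with sums of 39.1 to 88.0 and 29.0 to 54.7 CPM, a median of −0.88 and 6 at an unadjusted p under 0.05. Their count was 0 without any 1 of the same 4 libraries, 1 without WT replicate 1 or 4, 3 without KL-/- replicate 1, and 5 by DESeq2. Of 8 endothelial genes *Kdr* fell, with sums of 476 to 730 and 444 to 490 CPM, while *Cdh5* (log2 fold change −0.35, FDR = 0.0787) and *Pecam1* (−0.06, FDR = 0.744) did not pass. The endothelial median was −0.23, and 4 genes had an unadjusted p under 0.05. Of 7 adipocyte genes *Fabp4* rose (sums of 209.9 to 244 and 244 to 329 CPM), and *Lipe* (0.25, FDR = 0.119) did not pass. *Fabp4* alone supplied 177 to 197 CPM of these sums in WT and 203 to 242 CPM in KL-/- muscles. Of the 7, only *Fabp4* had all KL-/- samples above all WT samples. The adipocyte call was lost without any 1 of the WT replicates, without KL-/- replicate 1 or 3, with library totals and with a replicate block. The 9 muscle fibre genes summed to 142330 to 163838 CPM in WT and 169555 to 221830 CPM in KL-/- muscles, without overlap. None was called, although 2 had an unadjusted p under 0.05 and DESeq2 called 4 higher, and the medians of log2 fold change were 0.25 for fibre and 1.20 for adipocyte genes. The adipocyte median was the value of *Cfd*, which varied widely within the genotypes and did not pass (FDR = 0.258). *Cfd* stood at 5.67, 5.27, 6.44 and 18.6 CPM in WT and 47.5, 22.5, 3.73 and 9.54 CPM in KL-/- muscles. *Myh4* (0.46, FDR = 0.155) and *Atp2a1* (0.35, FDR = 0.169) had the highest average log2 CPM of the fibre genes, which takes no account of length. Of 10 immediate early genes *Btg2* and *Atf3* rose, and the count called was 1 without WT replicate 1, 2 or 3 or KL-/- replicate 1 or 4. *Jun*, *Egr1* and *Egr3* of that list also stand in another list. The part of these shifts in the values of the Schwann cell genes was not tested.

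**Figure D4:**
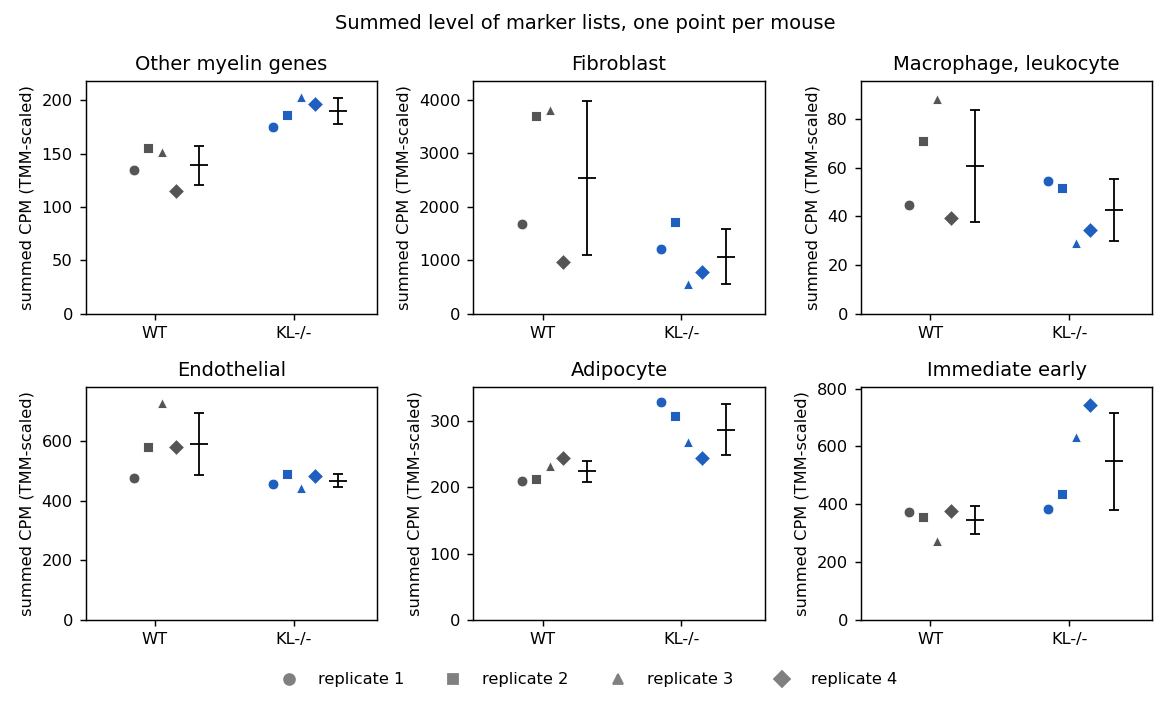
Summed CPM scaled by TMM factors (y axis, from 0) of the other myelin genes and 5 marker lists in the 4 WT (grey) and 4 KL-/- (blue) muscles, with the mean ± SD as a bar. The myelin, adipocyte and immediate early sums do not overlap between genotypes, the adipocyte sums only just, and the fibroblast, macrophage and endothelial sums overlap. *Fabp4* makes up most of each adipocyte sum, and *Mpp6* a large part of each myelin sum.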

How the data were processed

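Libraries were made from 100 ng of TA muscle RNA, 4 per genotype. The paper's methods name mRNA sequencing and the labels total RNA. The authors used STAR for alignment to mm10 and featureCounts for counting after low-quality alignments were dropped. The deposited counts are whole numbers and not normalized. The annotation version and strand setting are not given in the sources used here. No text or header pairs the mice, and the spread between samples may include technical variation.

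Analysis was in R 4.3.3. The edgeR 4.0.16 package gave TMM factors and the quasi-likelihood test for genotype, the sole term, with FDR under 0.05 as threshold. No gene of 12551 was lost to filterByExpr. Standard errors were taken from the test statistic. The first fit used the edgeR 3 form of that test (1715 genes called). After its results had been seen, 4 further forms were compared by their calls and the edgeR 4 form (1759 genes) became the reported one, to match an earlier analysis of these counts. All 5 forms called the same number of members, 3. In simulated counts with 200 genes changed, 79.7% of 2-fold and 45.1% of 1.5-fold changes were recovered. The changed genes were drawn at random from all genes and were fewer than the 1759 called. These rates are therefore not those of the members, some of which had low counts. RPKM divides CPM by the exon length of the deposited annotation. Gene overlaps came from GENCODE M21, upstream sequences from RefSeq.

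Alternatives were the likelihood ratio test, DESeq2 1.42.0, limma-voom (limma 3.58.1), RLE factors, library totals, no filter, at least 10 counts in every sample, a replicate block, and each library left out. Members and lists were chosen with earlier results of these data known. Named genes were the members, up to 4 genes per list past the threshold (the 2 most abundant where fewer than 2 passed), and the 3 genes nearest in pattern to a member among genes whose mean log2 CPM was 0 or more, of which only the first is named for some members. *Cfd* was named in addition, as the gene at the adipocyte median. Counting errors cover sampling only. List counts and sums include 2 genes that are not reported here on their own. *Kl*, protein sequences and reads were not analysed here.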

Additional observations from a re-analysis of the deposited data

Results flagged for a closer look

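In groups of 4 muscles, a sample was noted where its gap to the nearest other sample exceeded Dixon's 95% critical value as a share of the group's range. Of 44 groups examined, 16 of them single members and the others sums over lists, 3 met this, where chance gives about 1 in 20. *Ncmap* in KL-/- replicate 4 was 1.47 CPM, while the other KL-/- muscles lay at 1.08 to 1.10 CPM. The sum of the close paralogs in WT replicate 4 was 533 CPM, and the other WT muscles had 623 to 641 CPM. The sum of the 9 muscle fibre genes in the same library was 142330 CPM, below 161082 to 163838 CPM in the other WT muscles.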

How the results depend on the processing

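No member changed direction in any alternative, and 151 of 158 comparisons of a member with an alternative kept their side of the threshold. The other 7 were *Mbp* and *Prx* with a library left out. Since the filter removed no gene, the fit with no filter was the reported fit again, and its comparisons could not differ. With a library left out, 1 to 3 members were called higher and 0 lower, and the count was 1 without KL-/- replicate 3 and 1 without KL-/- replicate 4, with *Sox10* remaining in each. Over the same fits, the other Schwann cell genes called higher numbered 5 to 11 (5 without WT replicate 1, KL-/- replicate 3 or KL-/- replicate 4) and lower 0 to 1 (1 without KL-/- replicate 2). Of all genes, 404 to 1521 were called higher and 343 to 1234 lower. Library totals in place of TMM factors shifted the median over all genes (log2 fold change) from −0.02 to −0.13 and the calls to 492 higher and 2127 lower, so that 18.8% instead of 52.4% of calls were higher, while the members' median was 0.53 and 3 were still called. With replicate number as a block, 348 genes were called higher and 323 lower, with 3 members and 5 other Schwann cell genes. Same-numbered samples deviated together with r of −0.15, 0.18, −0.37 and 0.02, and pairs with different numbers with −0.29 to 0.30. These values gave no sign of pairing by number, but so few samples cannot exclude it. The edgeR 3 form was fitted first, and the reported edgeR 4 form was chosen after its results had been seen. The edgeR 3 form, its robust form, its form without an abundance trend and the robust edgeR 4 form called 1715, 1690, 1629 and 1726 genes, each with 3 members. The myelin sums without *Mpp6* were likewise computed after the data had been seen. At least 10 counts in every sample left 6 members, without *Ncmap* and *Egr2*. The causes of these changes were not tested. Members at 8 to 62 counts per library limit what *S100b*, *Sox10*, *Ncmap* and *Egr2* can show.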
